A study of Mus musculus with 6 samples.

Results

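Tendon identity genes are the genes by which tendon cells and their progenitors are recognized, and 10 of them were followed here in the injured mouse enthesis: the transcription factors Scx and Mkx, the membrane protein Tnmd, the matrix genes Thbs4, Tnc, Cilp and Cilp2, the progenitor and sheath marker Tppp3, the secreted protein gene Clec3b and the growth factor gene Pdgfa. They were chosen by symbol, and all 10 were among the 32285 genes listed for each library. Single cells came from the enthesis of the rotator cuff, where tendon inserts into bone, 7 days after injury and repair, in 3 libraries from wild type and 3 from Nlrp3 knockout (Nlrp3-/-) mice, which lack the sensor of an inflammasome. By the study's methods the mice were adult, and the supraspinatus tendon was cut near its insertion and sutured back through bone. All 6 libraries were thus from operated tissue, none was from uninjured tissue, and entheses were pooled before capture. The labels give no strain, age or number of animals, and the study's methods name C57BL/6 for its wild-type mice. The comparison asked whether the tendon program of the healing enthesis differed without Nlrp3.

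The tendon program is a sequence of factors and products. Scx, a basic helix-loop-helix factor, binds short DNA motifs called E-boxes and marks tendon progenitors from the embryo onward, and Mkx, a homeobox factor, maintains collagen expression as tendon matures. Tnmd encodes a transmembrane glycoprotein that marks mature tenocytes, and in adult tendon an injury recruits cells of the sheath and the loose tissue around it, where Tppp3 marks progenitors that also carry Pdgfra, the receptor for the Pdgfa ligand.

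Promoter sequences are shown for Thbs4 and Tnmd, because across mesenchymal subtypes their levels followed that of the E-box factor Scx most closely among the members. Each sequence runs 5′ to 3′ on the strand of the gene, from 250 bases before to 50 bases after the RefSeq start, in build GRCm38.p6, and capitals mark E-boxes, spelled CANNTG, which reads the same on both strands. The window is chr13:92794769-92795068 on the minus strand for Thbs4 and chrX:133850758-133851057 on the plus strand for Tnmd.
Thbs4: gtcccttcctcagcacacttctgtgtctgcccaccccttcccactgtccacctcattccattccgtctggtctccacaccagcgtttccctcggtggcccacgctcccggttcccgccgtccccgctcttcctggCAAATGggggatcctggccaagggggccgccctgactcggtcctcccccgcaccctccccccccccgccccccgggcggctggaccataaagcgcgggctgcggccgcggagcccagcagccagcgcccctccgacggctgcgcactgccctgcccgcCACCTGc
Tnmd: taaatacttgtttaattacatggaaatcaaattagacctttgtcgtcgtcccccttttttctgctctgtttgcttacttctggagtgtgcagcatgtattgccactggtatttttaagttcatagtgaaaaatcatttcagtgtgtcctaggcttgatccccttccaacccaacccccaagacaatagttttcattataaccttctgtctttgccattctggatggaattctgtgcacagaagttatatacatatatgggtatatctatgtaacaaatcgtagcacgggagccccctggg
The Thbs4 window held 2 of these motifs and the Tnmd window held 0. RefSeq windows were used for 6 of the 10 members in 8 entries, of which 5 held at least 1 E-box, against 72.3% of 32851 windows of the same length. Scx, Mkx, Tppp3 and Clec3b had no entry.

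The members lie on 8 chromosomes of mouse build GRCm38, and each is a protein-coding gene. The 2 transcription factors were annotated at chr15:76457452-76459458 on the plus strand for Scx and at chr18:6934518-7004780 on the minus strand for Mkx. The matrix genes Thbs4 and Tnc lie on the minus strand at chr13:92751590-92794818 and chr4:63959785-64047015, Cilp at chr9:65265180-65280605 on the plus strand and Cilp2 at chr8:69880369-69887687 on the minus strand. Tnmd is X-linked (chrX:133850980-133865577, plus strand), Clec3b lies at chr9:123150946-123157432 on the plus strand, and Tppp3 (chr8:105467493-105471526) and Pdgfa (chr5:138976014-138997370) lie on the minus strand.

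The libraries held between 97042713 and 134901999 UMIs, unique molecular identifiers that each stand for 1 captured transcript. After filters on depth, mitochondrial share and likely doublets, 81176 cells remained, of which 11932 in clusters mostly from 1 library with shallow cells were set aside. Of these, 11256 came from Nlrp3-/- replicate 1, whose 21274 cells had the lowest median depth, 1739 UMIs, against 3827 to 6680 UMIs in the other libraries. Any pair of libraries shared between 27 and 92 barcodes. Nlrp3 in mesenchymal cells was at 4.31, 9.19 and 6.47 CPM (counts scaled to 1000000 per sum) in the wild-type replicates and at 0 in all 3 Nlrp3-/- replicates, although the genotype labels of Nlrp3-/- replicates 2 and 3 name Nlrp4 and Nlrp5. Xist, made by female cells, ranged from 0 to 0.21 CPM in wild type and from 715 to 994 CPM in Nlrp3-/-, while the Y-linked Ddx3y ranged from 46.6 to 60.7 CPM in wild type and was at 0 in Nlrp3-/-. The sex of the cells and the genotype therefore cannot be told apart in any comparison below, which also touches the X-linked Tnmd.

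Cells were clustered without the 10 members, and 11556 of the 69244 remaining cells were mesenchymal: 1156, 2343 and 1481 in wild-type replicates 1 to 3 and 1691, 1809 and 3076 in Nlrp3-/- replicates 1 to 3. With the set-aside mesenchymal-like clusters included, Nlrp3-/- replicate 1 had 8735 such cells and the other libraries 1207 to 3136. The mesenchymal values of Nlrp3-/- replicate 1 below thus rest on the smaller part of these cells. Clusters were named from marker lists, and a name marks cells that resemble a type, not a proven identity. The mesenchymal clustering gave 24 clusters of 12610 cells, of which 6 clusters with 1054 cells were among those set aside, and the 11556 cells formed the other 18 clusters and 12 subtypes. The named ones were matrix-building fibroblasts, synovial lining cells, Pi16 progenitor fibroblasts, inflammatory fibroblasts, dividing cells and chondrocytes. The others are called by their leading genes, among them Mstn Chodl Kera cells, Dlk1 Chodl Abca8a cells and Ly6h Nrk Eln cells. The 3 clusters of matrix-building fibroblasts had 6, 5 and 6 of the 6 markers of that list raised, but none of these markers among their 10 leading genes. At a clustering resolution of 1 no subtype met the rule for the name tenocyte. The Mstn Chodl Kera cells came closest, with a mean log2 fold of 1.26 for the tenocyte list against 0.93 for the next list, less than the margin of 0.4 the name required, and Tnmd and Clec3b, which did not enter the clustering, were among their 10 leading genes. At a resolution of 2, 2 clusters of 916 and 255 cells took the name, and with the members kept in the clustering 1 cluster of 98 cells did. Blood cell genes led 2 small mesenchymal clusters.

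Most transcripts of the tendon genes were in mesenchymal cells. For 8 of the 10 members the mesenchymal cells held 84.2% to 99.4% of all UMIs in each library, except for Cilp2 in wild-type replicate 2 with 58.2%. Tppp3 and Pdgfa were spread more widely, with 38.4% to 58.8% and 38.0% to 58.6% of their UMIs in mesenchymal cells. Pericytes and smooth muscle cells had a mean of 530 CPM of Pdgfa and 336 CPM of Tppp3, endothelial cells had 121 CPM of Pdgfa, and macrophages had 91.3 CPM of Tppp3 and 58.9 CPM of Pdgfa. A summed level in a pooled type can change because fewer of its cells carry a gene or because each carries less RNA of it, and sums cannot tell these apart.

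The members fell into different cells of the mesenchyme, described here without a test by the mean CPM over the libraries with at least 20 cells of a subtype. The means therefore cover unlike sets of libraries, and that of Mstn Chodl Kera cells leaves out wild-type replicates 1 and 2, which had 10 and 17 such cells. The transcription factors did not share a peak. Scx was highest in matrix-building fibroblasts, named for genes such as Postn and Cthrc1, at 391 ± 136 CPM (SD, n = 6), followed by Mstn Chodl Kera cells at 294 ± 51.8 (n = 4) and Dlk1 Chodl Abca8a cells at 274 ± 118 (n = 5), whose ranges overlapped, and was lowest in Pi16 progenitor fibroblasts at 36.4 ± 20.6 (n = 6). Within single libraries matrix-building fibroblasts were first for Scx in 2 of 6 and second in the other 4. Scx was also among the 10 leading genes of 1 of their 3 clusters. In another, led by Tnmd and Hlf, Scx was at 808 and 543.5 CPM in wild-type replicates 2 and 3. In Nlrp3-/- that cluster had 379, 452 and 510 CPM. Mkx was low throughout, from 30.7 ± 26.9 CPM in Dlk1 Chodl Abca8a cells to 3.71 CPM in Pi16 progenitor fibroblasts. Dlk1 Chodl Abca8a cells were first in 3 of 6 libraries. Their mean was carried by Nlrp3-/- replicate 2, at 77.8 CPM from 24 cells, where the next highest library had 28.2 CPM.

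Taken by subtype, Tnmd and Thbs4, products of differentiated tendon, had their highest means in the 2 subtypes called after Chodl. Tnmd was at 729 ± 81.7 CPM in Mstn Chodl Kera cells and at 539.5 ± 281 in Dlk1 Chodl Abca8a cells, at 332 in Ly6h Nrk Eln cells and 298 in matrix-building fibroblasts, and at 6.17 CPM in synovial lining cells. Dlk1 Chodl Abca8a cells were first for Tnmd in 3 libraries, Mstn Chodl Kera cells in 2 and Ly6h Nrk Eln cells in 1. The 298 CPM of matrix-building fibroblasts pooled 3 clusters with unlike levels. Their cluster led by Tnmd and Hlf was at 1011 and 743 CPM in wild-type replicates 2 and 3. In Nlrp3-/- it was at 1094, 637 and 803 CPM. Thbs4, a matricellular protein that organizes collagen at muscle attachments, reached 2491 ± 977 CPM in Dlk1 Chodl Abca8a cells, 2323 ± 301 in Mstn Chodl Kera cells and 966 CPM in matrix-building fibroblasts next in order, and each of the first 2 led in 3 of 6 libraries. That step of 2.40-fold was the only one in the orders of the 10 members where neighbouring subtypes had ranges that did not overlap. It did not part all subtypes above it from all below. Dlk1 Chodl Abca8a cells reached down to 772 CPM and matrix-building fibroblasts up to 1546 CPM. Vpreb3 Iglv1 Igkc cells, a cluster led by blood cell genes, reached 2235 CPM, above the lowest Mstn Chodl Kera library at 2025 CPM. In the cluster led by Tnmd and Hlf, Thbs4 was at 2269 and 1741 CPM in wild-type replicates 2 and 3. In Nlrp3-/- that cluster was at 1588, 1376 and 1253 CPM.

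The remaining matrix genes had peaks of their own. Tnc, whose product tenascin-C is laid down in developing and injured tendon, was widespread, with 1559.6 ± 1021 CPM in Acta1 Cxcl9 Actg2 cells, 1465 in Mstn Chodl Kera cells, 1206 in dividing cells, 1191 in matrix-building fibroblasts and 175 in chondrocytes, and no subtype was first in more than 2 libraries. Cilp, which encodes a cartilage intermediate layer protein that binds growth factors, was highest in Dlk1 Chodl Abca8a cells at 920.1 ± 503 CPM and in chondrocytes at a mean of 627, where the libraries spanned 65.8 to 2563 CPM and wild-type replicate 2 alone gave the top value. Dlk1 Chodl Abca8a cells were first for Cilp in 4 of 6 libraries. Its relative Cilp2 was highest in chondrocytes, at 76.9 ± 50.8 CPM (n = 5), ahead of Mstn Chodl Kera cells and Dlk1 Chodl Abca8a cells at 40.1 and 39.0 CPM, and chondrocytes were first in 3 of 6 libraries.

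The sheath, progenitor and ligand genes had their highest means in other subtypes. Tppp3, whose product stabilizes microtubules, was highest in synovial lining cells at 470.2 ± 103 CPM, in 6 of 6 libraries, and next in Pi16 progenitor fibroblasts at 229, against 15.4 in Ly6h Nrk Eln cells. Clec3b, which encodes tetranectin, a plasminogen-binding secreted protein, was highest in Pi16 progenitor fibroblasts at 1177 ± 634 CPM, again in 6 of 6 libraries. Next were Mstn Chodl Kera cells at 567 ± 439 and Dlk1 Chodl Abca8a cells at 348, each second in 3 libraries. Wild-type replicate 3, at 1219.8 CPM, gave the top value of the Mstn Chodl Kera cells. Pdgfa, the ligand of Pdgfra, was highest in synovial lining cells at 201 ± 80.9 CPM, in 4 of 6 libraries, and lowest in Pi16 progenitor fibroblasts at 36.4 CPM.

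**Figure D1:**
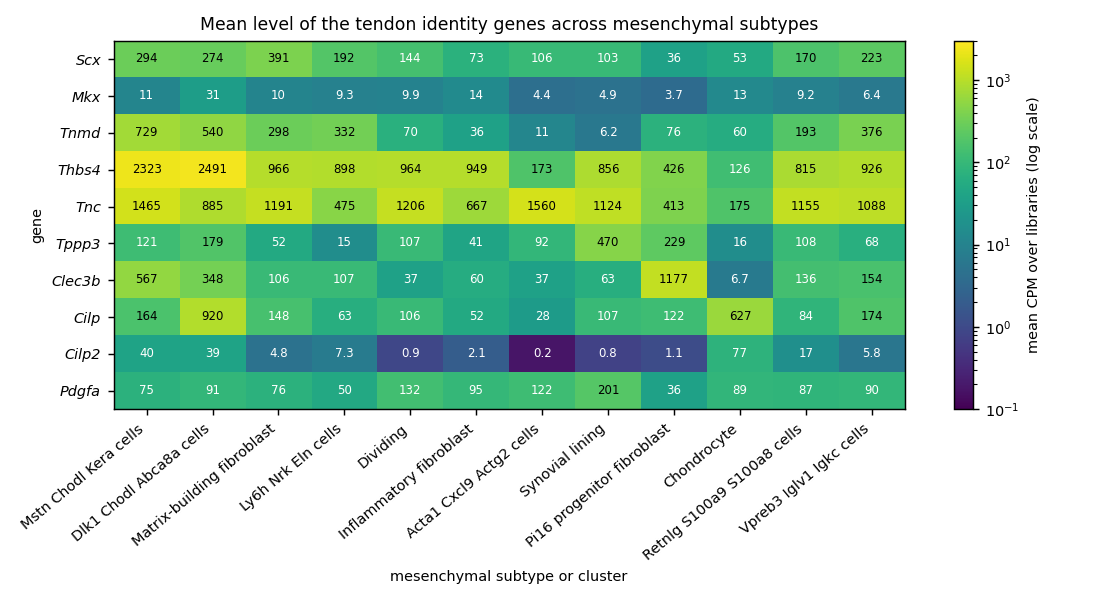
Mean CPM of the 10 members (rows) in 12 mesenchymal subtypes (columns), over the libraries with at least 20 cells of the subtype, on a logarithmic colour scale. Tnmd and Thbs4 are brightest in the Mstn Chodl Kera and Dlk1 Chodl Abca8a columns, Tppp3 and Pdgfa in synovial lining cells, and Clec3b in Pi16 progenitor fibroblasts.

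Among 5901 genes with a mean of at least 20 CPM, those with the most similar pattern were found by Pearson correlation of log2(CPM + 1) over 55 sums of a library and a subtype, which share libraries and depth. The 3 nearest genes were Cthrc1 (r = 0.77), Oxct1 (r = 0.75) and Zfp185 (r = 0.74) for Scx, and Fmod (r = 0.64), Ecrg4 (r = 0.59) and Strbp (r = 0.58) for Mkx. For Tnmd they were Angptl1 (r = 0.84), Cpxm2 (r = 0.83) and Zfp185 (r = 0.82), for Thbs4 Ssc5d (r = 0.76), Ppp1r12c (r = 0.76) and Kera (r = 0.75) and for Tnc they included Itgb1 (r = 0.89) and Tpm4 (r = 0.81). Cilp was nearest to Arl4a (r = 0.74), Sparcl1 (r = 0.69) and Tgfbr1 (r = 0.67), and Cilp2 to Crispld1 (r = 0.83), Ldlrad3 (r = 0.82) and Fibin (r = 0.81). Tppp3 was nearest to Cd34 (r = 0.88), Igfbp6 (r = 0.88) and Cd44 (r = 0.84), Clec3b to Grn (r = 0.78), Ctsz (r = 0.78) and Dpt (r = 0.77) and Pdgfa to Prkar1a (r = 0.76), Nptn (r = 0.75) and Ncs1 (r = 0.74). Among these, Cthrc1 is a secreted protein gene of matrix-making fibroblasts, Kera and Fmod encode the proteoglycans keratocan and fibromodulin, and Dpt encodes dermatopontin. Among the members themselves the highest values were Scx with Thbs4 (0.64), Scx with Tnmd (0.59) and Tnmd with Thbs4 (0.57), and the lowest were Tnmd with Pdgfa (-0.46) and Clec3b with Pdgfa (-0.40).

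Between the genotypes, no member passed the test in the sum of all mesenchymal cells. The edgeR quasi-likelihood test with Benjamini-Hochberg adjustment over 14755 genes called 16 genes, 0.108% of those tested, and 0 of the 10 members, of which 1 had an unadjusted p below 0.05, as did 12.8% of all genes tested. DESeq2 called 252 genes, or 1.71%, and also 0 members. All 10 members passed the filter on low counts. Markers of other cells were present in these sums: the 6 neutrophil markers together were at 3831, 979 and 1622 CPM in wild type and 827, 1286 and 797 CPM in Nlrp3-/-, the 6 pericyte markers at 30.9 to 77.3 CPM against 40.2 to 234 CPM and the 6 macrophage markers at 26.4 to 46.5 CPM against 21.7 to 44.0 CPM. Each of these groups overlapped, no marker was at 0 in all 6 libraries, and the part of these cells in the results was not tested. The lack of a call does not show that levels were equal.

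The transcription factors differed little against their spread. Scx was at 87.4, 97.3 and 308 CPM in wild-type replicates 1 to 3 and at 185, 145 and 229 CPM in Nlrp3-/- replicates 1 to 3. The single highest library was wild-type replicate 3 and the groups overlapped (log2 fold change of 0.12, SE 0.49, adjusted p = 0.916 by edgeR). Mkx was between 6.78 and 12.8 CPM in wild type and between 7.78 and 12.7 CPM in Nlrp3-/- (adjusted p = 0.798 by edgeR).

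Tnmd and Tnc were low in wild-type replicates 1 and 2 only. Tnmd was at 69.2, 103 and 275 CPM in wild type and at 277, 285 and 244 CPM in Nlrp3-/-. Wild-type replicate 3 lay within the Nlrp3-/- range, the other wild-type libraries below it, and the log2 fold change was 0.79 (SE 0.48, adjusted p = 0.465 by edgeR). Tnc was at 491, 448 and 1169.8 CPM against 1273, 954 and 929.7 CPM, with wild-type replicate 3 again inside the range of the knockouts (log2 fold change of 0.52, SE 0.38, adjusted p = 0.535 by edgeR). These 2 genes depended on that library: without wild-type replicate 3, when 712 genes were called, Tnmd (log2 fold change of 1.57) and Tnc (1.09) were called too, each at an adjusted p of 0.0422 by edgeR.

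The other matrix genes and the ligand overlapped between the groups. Thbs4 was at 636, 612 and 1420.3 CPM in wild type and at 591, 1171 and 1032 CPM in Nlrp3-/-, with the highest value again in wild-type replicate 3. Cilp spanned 79.9 to 141 CPM against 116 to 143, Cilp2 1.22 to 17.3 against 7.96 to 30.7, Tppp3 68.4 to 114 against 67.9 to 104, and Pdgfa 75.6 to 89.7 against 81.2 to 98.1. Their log2 fold changes ran from -0.18 for Tppp3 to 1.14 for Cilp2, and the smallest adjusted p was 0.573 by edgeR.

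Clec3b was the member whose groups did not overlap, as 19.8% of the genes tested also did not. It was at 153, 211 and 296 CPM in wild-type replicates 1 to 3, a mean of 219.8 ± 71.8 (SD, n = 3), and at 46.7, 112 and 142 CPM in Nlrp3-/- replicates 1 to 3, a mean of 100.4 ± 48.9 (SD, n = 3). The lowest wild-type library, replicate 1, stood just above the highest Nlrp3-/- library, replicate 3, and the log2 fold change was -1.18 (SE 0.44, adjusted p = 0.367 by edgeR). The share of mesenchymal cells with a Clec3b UMI, after thinning each cell to 1000 UMIs, was 12.3%, 15.1% and 19.3% in wild type and 3.94%, 9.85% and 10.6% in Nlrp3-/-. Unthinned shares were 31.7%, 34.6% and 52.6% against 11.8%, 26.5% and 28.0%. In neutrophils, which should lack the gene, the thinned share was 0.053% to 0.446% and the unthinned share 0.10% to 0.86%, at median depths of 2290.5 to 3729 UMIs against 9831 to 17261 UMIs in mesenchymal cells, so the mesenchymal shares lay above the background of free RNA.

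**Figure D2:**
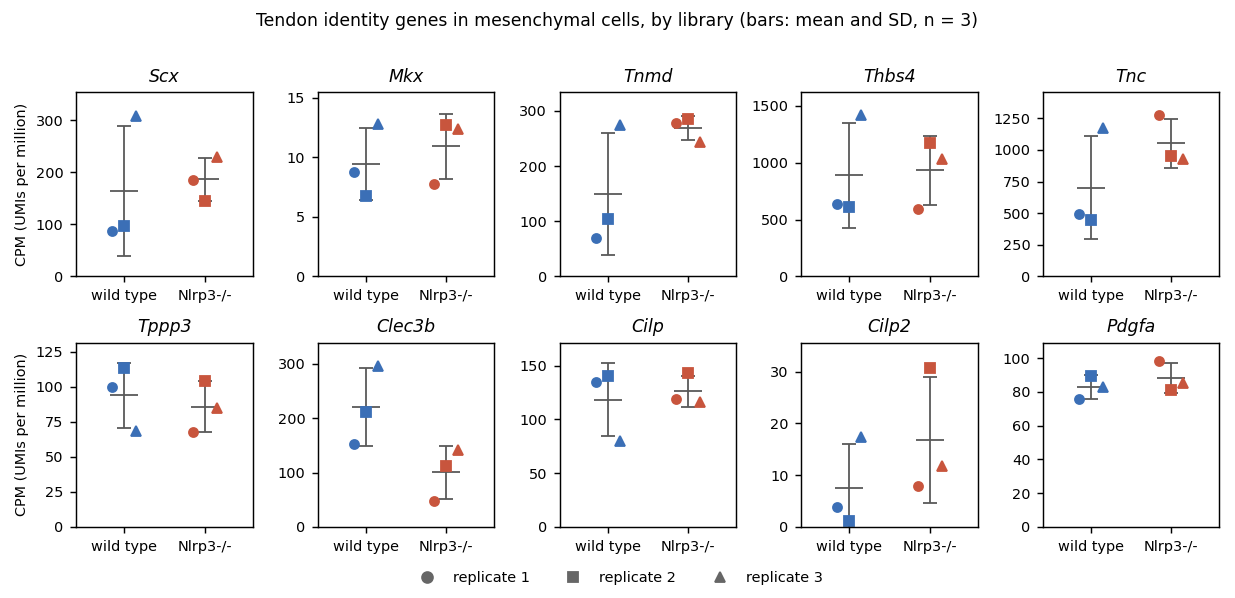
CPM of each member in the summed mesenchymal cells, 1 point per library, with the mean and SD of the 3 wild-type and the 3 Nlrp3-/- libraries. The Clec3b points of the genotypes do not overlap, and for Scx, Tnmd, Thbs4 and Tnc wild-type replicate 3 lies far above wild-type replicates 1 and 2.

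The libraries differed in their shares of the 2 subtypes with the highest means of Tnmd and Thbs4. Mstn Chodl Kera cells made up 0.87%, 0.73% and 12.4% of mesenchymal cells in wild type and 2.01%, 29.9% and 18.2% in Nlrp3-/-. Wild-type replicate 3 and Nlrp3-/- replicates 2 and 3 were high, the groups overlapped, and the difference of 12.0 percentage points had p = 0.2 in a two-sided exact permutation test, whose smallest possible value is 0.1. Dlk1 Chodl Abca8a cells made up 7.53%, 7.85% and 0.95% in wild type and 2.07%, 1.33% and 1.72% in Nlrp3-/-, high in wild-type replicates 1 and 2 (difference of -3.74 points, exact permutation p = 0.4). Both together made up 8.39%, 8.58% and 13.4% against 4.08%, 31.2% and 19.9%, where the groups overlapped and the difference was 8.29 points (exact permutation p = 0.4). Other subtypes differed too. Matrix-building fibroblasts made up 2.60%, 5.16% and 35.2% in wild type and 31.8%, 6.85% and 25.3% in Nlrp3-/-. Ly6h Nrk Eln cells made up 5.62%, 4.31% and 7.22% against 31.7%, 2.49% and 15.9%. Inflammatory fibroblasts made up 26.0%, 37.9% and 12.0% against 4.91%, 11.3% and 15.5%. Of the mesenchymal Tnmd UMIs, matrix-building fibroblasts held 55.6% in wild-type replicate 3 and Ly6h Nrk Eln cells 63.1% in Nlrp3-/- replicate 1. For Mstn Chodl Kera cells the value moved with the clustering. With the members kept among the clustering genes, clusters led by the tenocyte list held 3.08%, 4.50% and 31.4% of mesenchymal cells in wild type and 2.51%, 32.6% and 20.4% in Nlrp3-/-, a difference of 5.50 points, a measure chosen after seeing the data. Over only the 98 cells that took the name tenocyte in that clustering the difference was -0.18 points, and in the first clustering it was 5.42 to 19.4 points when a library was left out. With each of the 6 tested subtypes given equal weight, Clec3b was at 320, 413 and 386 CPM in wild type against 89.3, 134 and 208 in Nlrp3-/-, a log2 difference of -1.38 with no overlap. The same weighting took the log2 difference of Tnmd to 0.06 and that of Cilp2 to 0.48, and raised that of Pdgfa to 0.53. Pdgfa was at 64.7, 80.8 and 95.4 CPM in wild type and 128, 124 and 96.3 CPM in Nlrp3-/-. Its groups no longer overlapped, with 95.4 and 96.3 CPM in the nearest libraries. This weighting was chosen after seeing the data, and the share of all genes without overlap under it is not given here.

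Clec3b had a lower mean in Nlrp3-/- in each of the 6 subtypes with enough cells to test, without overlap in 4 of them. It was called lower in 3, and it was the one member that edgeR called in any subtype. Of 60 pairs of a member and a subtype, 53 passed the filter on low counts, 3 were called, against 0.256% of all genes tested in these subtypes, and 17 had an unadjusted p below 0.05, against 11.9%. The groups did not overlap in 10 of the 53, a number close to the 18.8% of all genes without overlap. DESeq2 called 7 pairs, with 0.736% of all genes called by it, which were Clec3b in those 3 subtypes and in Pi16 progenitor fibroblasts, Tnmd in matrix-building fibroblasts (log2 fold change of -1.07), and Cilp (1.16) and Pdgfa (0.82) in synovial lining cells. The called pairs are described below with the share of all genes called lower in the same subtype.

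In matrix-building fibroblasts Clec3b was at 191, 136 and 188 CPM in wild type (172 ± 31.0, SD, n = 3) and at 31.8, 47.0 and 43.7 CPM in Nlrp3-/- (40.8 ± 7.97, SD, n = 3). Every wild-type library lay above every Nlrp3-/- library, and Clec3b fell by 2.19 on the log2 scale (SE 0.20, adjusted p = 0.00011 by edgeR), where 0.258% of the genes were called lower and 0.452% in either direction. The call was made under all 14 alternatives run, with log2 fold changes from -2.97, at a clustering resolution of 2, to -2.03, without Nlrp3-/- replicate 1. Wild-type replicate 1, the highest library, had only 30 of these cells.

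In Ly6h Nrk Eln cells Clec3b was at 127, 123 and 240.4 CPM against 28.7, 86.9 and 37.9 CPM. The groups did not overlap, and it fell by 2.03 on the log2 scale (SE 0.35, adjusted p = 0.0182 by edgeR, with 0.307% of the genes called lower and 0.483% in either direction). The call was lost without wild-type replicate 1 (adjusted p = 0.0501 by edgeR), Nlrp3-/- replicate 1 (0.143) or Nlrp3-/- replicate 3 (0.115).

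Synovial lining cells had Clec3b at 58.2, 103 and 167 CPM in wild type and at 9.22, 25.1 and 18.0 CPM in Nlrp3-/-. The groups did not overlap, and it fell by 2.59 on the log2 scale (SE 0.36, adjusted p = 0.0172 by edgeR, with 0.109% of the genes called lower and 0.163% in either direction). This call was lost without wild-type replicate 2 (adjusted p = 0.0559 by edgeR), Nlrp3-/- replicate 1 (0.0565) or Nlrp3-/- replicate 3 (0.118), with the members kept in the clustering (0.0800) and at a clustering resolution of 2 (0.0512).

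The same gene was not called in the subtype where it is most abundant. In Pi16 progenitor fibroblasts Clec3b was at 1485, 2049 and 1502 CPM in wild type and at 449.6, 458 and 1116 CPM in Nlrp3-/-. The groups did not overlap, the log2 fold change was -1.42 (SE 0.35) and the adjusted p was 0.352 by edgeR, while DESeq2 (adjusted p = 0.0147), no filter on low counts and the clustering that kept the members (0.0399) each gave a call. In dividing cells, at 14.1, 36.9 and 101 CPM against 13.2, 37.8 and 17.1 CPM, and in inflammatory fibroblasts, at 47.0, 32.6 and 115 CPM against 3.46, 149.9 and 13.0 CPM, the groups overlapped and neither difference was called (adjusted p = 0.401 and 0.961 by edgeR). The inflammatory fibroblasts lay in different clusters by library. The cluster led by Dio3, Draxin and Saa3 held 221, 802 and 88 wild-type cells against 56, 2 and 43, the cluster led by Mmp3, Ccl20 and Mmp13 held 78, 84 and 79 against 22, 89 and 383, and the cluster led by Pappa2, Chodl and Mmp3 held 1, 1 and 10 against 5, 113 and 51. Within the Dio3-led cells Clec3b was at 35.2, 14.9 and 31.2 CPM in wild type against 3.23 and 7.74 CPM in Nlrp3-/- replicates 1 and 3. The Mmp3-led cells had 62.5, 240.2 and 161 CPM against 4.91, 45.3 and 8.68 CPM, and the groups overlapped in neither cluster. The share of all genes without overlap in these clusters is not given here. Some of these Clec3b values stood near the floor. The Dio3-led cells of Nlrp3-/- replicates 1 and 3 had 2 and 5 UMIs, and the 22 Mmp3-led cells of replicate 1 had 1 UMI. The Pappa2-led cells had 260.4 and 66.7 CPM in Nlrp3-/- replicates 2 and 3 and too few cells elsewhere. Background shares called in either direction were 0.159% in Pi16 progenitor fibroblasts, 0.131% in dividing cells and 0.156% in inflammatory fibroblasts.

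Subtypes with too few cells in some libraries were described only. Clec3b was at 1219.8 CPM in the Mstn Chodl Kera cells of wild-type replicate 3 and at 415, 351 and 280.2 CPM in those of Nlrp3-/-. Dlk1 Chodl Abca8a cells had 560.0 and 669 CPM in 2 wild-type libraries against 135, 90.7 and 285 CPM. Each of these wild-type values lay above each Nlrp3-/- value. Only wild-type replicate 3 entered the first comparison and 2 wild-type libraries the second. The share of all genes separated in this way is not given here, so the separation is not read as a result.

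Clec3b in free RNA, measured in barcodes with at most 100 UMIs, was 23.5, 52.1 and 72.7 CPM in wild type and 9.09, 33.3 and 39.1 CPM in Nlrp3-/-. These groups overlapped, with wild-type replicate 1 below Nlrp3-/- replicates 2 and 3, and the part of free RNA in the differences above was not tested.

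**Figure D3:**
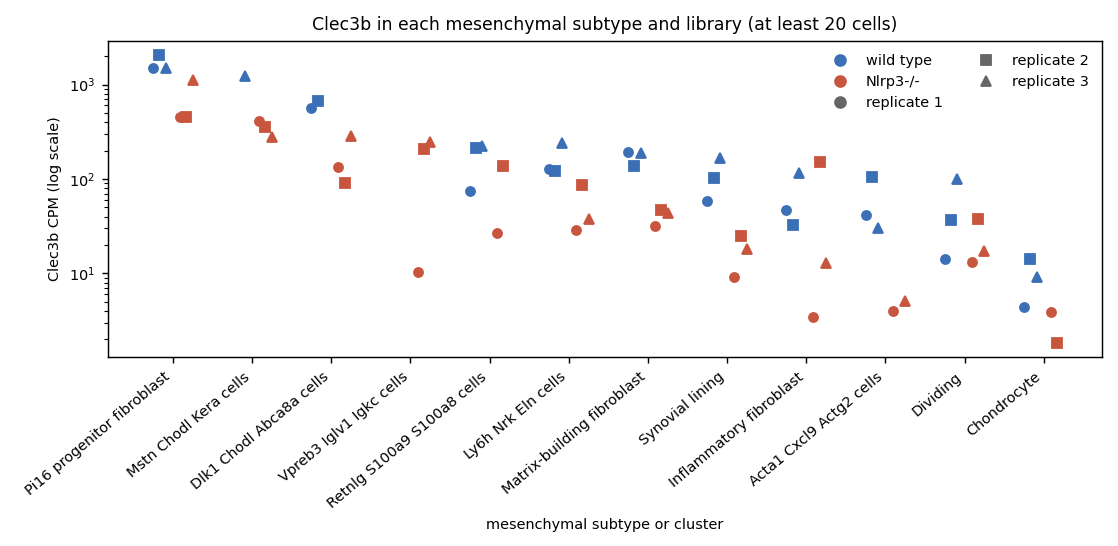
CPM of Clec3b per library on a logarithmic axis in the mesenchymal subtypes with at least 20 cells in the library, wild type and Nlrp3-/-. The genotypes do not overlap in matrix-building fibroblasts, Ly6h Nrk Eln cells, synovial lining cells and Pi16 progenitor fibroblasts, and overlap in dividing cells and inflammatory fibroblasts.

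Matrix-building fibroblasts consisted of 3 clusters, taken in different proportions from the libraries, and wild-type replicate 1 had fewer than 20 cells in each. In the cluster led by Tnmd and, after it, Hlf, C1qtnf3 and Chst5, called Hlf-led because names left out the members, Clec3b was at 198 and 245 CPM in wild-type replicates 2 and 3 and at 3.29, 8.25 and 24.3 CPM in Nlrp3-/-. In the cluster led by the contractile genes Acta2, Actg2 and Cnn1 it was at 61.7 and 76.2 CPM against 3.04, 4.63 and 3.71 CPM. In both, the wild-type values lay above the Nlrp3-/- values, with only 2 wild-type libraries and with 1 UMI behind the 3.29 CPM. The share of all genes separated in this way is not given here. In the cluster led by Eln, Cdh3 and Adamts16 they overlapped, at 184 and 316 CPM against 62.8, 265 and 119.5 CPM. In wild-type replicate 1, 12 Eln-led cells held 74 Clec3b UMIs, against 4 UMIs in 14 Acta2-led and 7 in 4 Hlf-led cells.

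Tnmd, the first leading gene of the Hlf-led cells, was at 1011 and 743 CPM in those of wild-type replicates 2 and 3 and at 1094, 637 and 803 CPM in Nlrp3-/-, with overlap. The Acta2-led cells had 236 and 63.6 CPM against 75.6, 40.5 and 72.3 CPM, and the Eln-led cells 57.8 and 144 CPM against 196, 32.7 and 146 CPM. Within each cluster the groups overlapped. Hlf-led cells numbered 4, 47 and 318 in wild type and 36, 46 and 100 in Nlrp3-/-, Eln-led cells 12, 22 and 33 against 280, 22 and 287, and Acta2-led cells 14, 52 and 170 against 222, 56 and 390.

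**Figure D4:**
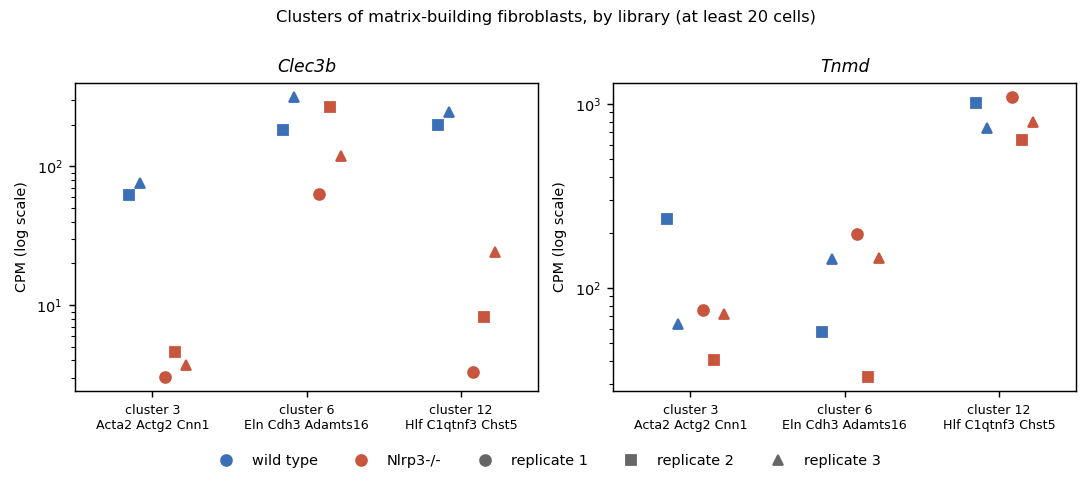
CPM of Clec3b and of Tnmd per library, on a logarithmic axis, in the 3 clusters of matrix-building fibroblasts, for libraries with at least 20 cells in the cluster. Only wild-type replicates 2 and 3 are shown for wild type. Clec3b separates the genotypes in the Acta2-led and Hlf-led clusters and not in the Eln-led cluster, while Tnmd is highest in the Hlf-led cluster in both genotypes.

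For Tnmd the difference between the genotype groups, whose sex also differed, was not the same in matrix-building fibroblasts as in the rest of the mesenchyme. In matrix-building fibroblasts it was at 212, 501 and 459 CPM in wild type and at 188, 246 and 179.6 CPM in Nlrp3-/-, and in all other mesenchymal cells at 66.0, 86.6 and 183 CPM against 323, 287 and 266 CPM. The values were thus mostly lower in the knockout in the first and higher in the second. The interaction of subtype and genotype was -2.38 on the log2 scale (SE 0.27, adjusted p = 0.0322 by edgeR), and 0.0369% of the genes were called in that comparison. It was the 1 call among 60 pairs of a member and a subtype, of which 17 had an unadjusted p below 0.05, against 5.29% of all genes in the 6 fits, and it was lost without wild-type replicate 1 (adjusted p = 0.294 by edgeR) or Nlrp3-/- replicate 1 (0.0987). Cluster proportions within these fibroblasts and subtype shares among the other cells also differed, as given above. Their part in the interaction was not tested.

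The other members gave no edgeR call in a subtype, and the pairs without overlap are listed with their values. In synovial lining cells, where 22.0% of genes did not overlap, Cilp was at 55.4, 31.7 and 103 CPM against 124, 177 and 153 CPM and Pdgfa at 91.1, 135 and 184 CPM against 313, 253 and 227 CPM (log2 fold changes of 1.18 and 0.82, each with an adjusted p of 0.167 by edgeR). In Ly6h Nrk Eln cells, where 16.4% of genes did not overlap, Tnmd was at 242, 206 and 252 CPM against 672, 263 and 357 CPM and Cilp2 at 5.33, 0.781 and 4.01 CPM against 10.4, 9.15 and 13.8 CPM (log2 fold changes of 0.82 and 1.82, adjusted p of 0.318 and 0.167 by edgeR). Dividing cells, with 21.3% of genes not overlapping, had Cilp at 86.2, 81.0 and 80.2 CPM against 114, 160.2 and 116 CPM and Pdgfa at 97.9, 104 and 109 CPM against 165, 205 and 109 CPM (adjusted p of 0.339 and 0.375 by edgeR). In all 6 pairs every Nlrp3-/- library was the higher one, for Pdgfa in dividing cells by less than 1 CPM between the nearest libraries. Cilp2 in Ly6h Nrk Eln cells stood on few UMIs, 4, 1 and 6 in wild type and 45, 4 and 82 in Nlrp3-/-.

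Several pairs had small unadjusted p and still missed the threshold, and the groups overlapped in each pair named here. An unadjusted p below 0.05 by edgeR was found for 11.9% of all genes over the tested subtypes. In matrix-building fibroblasts, where 19.6% of genes did not overlap, the log2 fold change was -1.08 for Tnmd (adjusted p = 0.117 by edgeR), -2.35 for Cilp2 (0.0774) and -0.68 for Scx (0.335). Cilp2 was at 0, 5.24 and 16.5 CPM there in wild type and at 1.77, 2.86 and 2.60 CPM in Nlrp3-/-. Wild-type replicate 1, with 30 such cells, lay below and the other wild-type libraries above the knockouts. The log2 fold change of Tnc was 1.08 in synovial lining cells and 0.94 in dividing cells (adjusted p = 0.238 and 0.359 by edgeR), that of Cilp was 1.36 in inflammatory fibroblasts (0.285), where 18.4% of genes did not overlap, and that of Thbs4 was -1.24 in Pi16 progenitor fibroblasts (0.487), where 14.3% did not. Cilp overlapped within the Dio3-led inflammatory fibroblasts, at 17.8, 15.3 and 3.06 CPM against 27.5 and 10.8 CPM in Nlrp3-/- replicates 1 and 3, and within the Mmp3-led ones, at 43.9, 169 and 72.3 CPM against 54.0, 87.9 and 61.4 CPM. The Pappa2-led cells, few in wild type, had 168 and 193 CPM in Nlrp3-/- replicates 2 and 3.

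**Figure D5:**
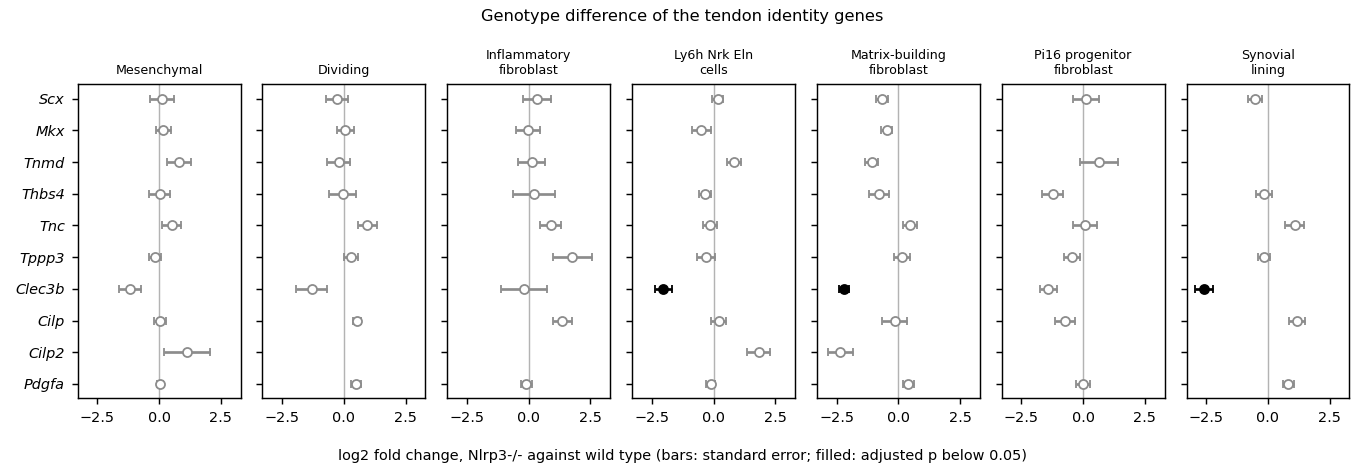
Log2 fold change (Nlrp3-/- minus wild type, with SE) of each member in all mesenchymal cells and in 6 subtypes, from edgeR. Filled points have an adjusted p below 0.05, and these are Clec3b in matrix-building fibroblasts, Ly6h Nrk Eln cells and synovial lining cells.

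Cells with UMIs of both Tppp3 and Pdgfra differed in frequency between the groups by less than the spread of the libraries. After thinning to 1000 UMIs they made up 1.17%, 1.46% and 0.91% of mesenchymal cells in wild type and 0.67%, 1.58% and 1.10% in Nlrp3-/-. The product of the 2 single shares, which independent detection would give, was 0.997%, 1.58% and 0.796% against 0.672%, 1.16% and 1.05%, close to these values, so they are not read as a frequency of progenitors. The groups overlapped, and the difference of -0.061 percentage points had p = 0.9 in the two-sided exact permutation test. Unthinned shares were 29.8%, 30.9% and 30.5% against 14.1%, 31.3% and 27.4%, with the low value in the shallow Nlrp3-/- replicate 1. By subtype the thinned share was highest in synovial lining cells, 3.75% to 5.94%, and in Pi16 progenitor fibroblasts, 1.89% to 5.85%, where the products were 3.85% to 6.44% and 1.91% to 6.06%.

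A list of 40 further genes of tendon and enthesis, covering collagens, proteoglycans, growth factors and their receptors, was tested beside the members. In the mesenchymal sum 0 of the 40 were called by edgeR, and 2 had an unadjusted p below 0.05, as did 12.8% of all genes tested. A positive log2 fold change was found for 33, with a median of 0.35 against 0.04 over all genes tested. The median was 0.12 in dividing cells, 0.13 in inflammatory fibroblasts, 0.23 in both Ly6h Nrk Eln cells and synovial lining cells, 0.007 in Pi16 progenitor fibroblasts and -0.09 in matrix-building fibroblasts, where 16 of 33 tested genes were positive and 8 had an unadjusted p below 0.05, against 10.2% of all genes tested there. An unadjusted p below 0.05 was also found for 1 of 35 genes in dividing cells, 5 of 33 in inflammatory fibroblasts and 3 of 32 in Ly6h Nrk Eln cells. It was found for 2 of 30 in Pi16 progenitor fibroblasts and 1 of 32 in synovial lining cells, against 11.9% of all genes over the tested subtypes. Over all genes the medians in these subtypes lay between -0.0041 and 0.018. In matrix-building fibroblasts the keratocan gene Kera was at 2.25, 53.7 and 51.9 CPM against 4.42, 22.9 and 17.4 CPM (log2 fold change of -1.79, adjusted p = 0.194 by edgeR). The largest in the mesenchymal sum were Gdf5, a joint and tendon growth factor, at 2.36 (adjusted p = 0.390 by edgeR), the binding protein gene Igfbp5 at 1.22 (0.346) and the hedgehog target Gli1, a marker of enthesis progenitors, at 1.20 (0.442). Gdf5 was at 1.52, 0.505 and 1.46 CPM in wild type and at 1.03, 14.4 and 2.26 CPM in Nlrp3-/-, where replicate 2 alone was high and the groups overlapped. In subtypes 1 was called, Igfbp5 in Ly6h Nrk Eln cells, where 0.483% of all genes were called. Igfbp5 was at 65.3, 67.2 and 68.1 CPM in wild type and 172, 219.6 and 182 CPM in Nlrp3-/-, with no overlap. Its log2 fold change there was 1.40 (SE 0.18, adjusted p = 0.00206 by edgeR). Its log2 fold change was 1.93 in dividing cells, 1.71 in synovial lining cells, 1.24 in inflammatory fibroblasts, 0.99 in matrix-building fibroblasts and -0.02 in Pi16 progenitor fibroblasts, with adjusted p of 0.199, 0.173, 0.386, 0.0639 and 0.998 by edgeR.

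Outside the mesenchyme the members were low or not called. In 9 other cell types 37 pairs of a member and a type passed the filter on low counts, and edgeR called 0, with 11 at an unadjusted p below 0.05, as were 15.9% of all genes tested in these types, and 11 without overlap, against 22.1% of all genes, of which 0.750% were called. DESeq2 called 5, where it called 2.48% of all genes, which were Tnc in B cells, macrophages and neutrophils, and Tnmd and Pdgfa in macrophages. The background shares called in either direction were 0.223% in B cells, 0.375% in endothelial cells, 0.408% in macrophages, 0.284% in mast cells and basophils, 3.00% in neutrophils, 0.186% in pericytes and smooth muscle cells, 1.45% in plasmacytoid dendritic cells, 0.511% in progenitors and 0.692% in T and NK cells. The shares without overlap were 13.1%, 24.1%, 24.3%, 18.7%, 29.1%, 18.8%, 20.6%, 26.8% and 19.3% in the same order. Pericytes and smooth muscle cells had Clec3b at 18.6, 25.6 and 69.0 CPM in wild type and at 10.1, 2.19 and 4.58 CPM in Nlrp3-/-. The groups did not overlap, and the log2 fold change of -2.68 had an adjusted p of 0.154 by edgeR, or 0.0430 when doublets were kept.

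Tnc was without overlap in 5 blood cell types, which were neutrophils, macrophages, B cells, mast cells and basophils, and progenitors. In neutrophils it was at 3.85, 5.81 and 7.92 CPM against 12.2, 13.0 and 15.2 CPM (adjusted p = 0.0572 by edgeR), and in macrophages at 4.02, 6.56 and 9.85 CPM against 12.5, 13.2 and 19.1 CPM (adjusted p = 0.16 by edgeR). In each the Nlrp3-/- libraries were the higher ones. Tnc in free RNA was at 97.6, 159 and 396 CPM in wild type and at 372, 296 and 325 CPM in Nlrp3-/-, above the level in either cell type, and its part in these differences was not tested. Pdgfa in macrophages was at 47.0, 40.9 and 46.2 CPM against 56.9, 92.1 and 70.0 CPM, higher in every Nlrp3-/- library (adjusted p = 0.159 by edgeR).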

How the data were processed

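Dissociated tissue of the operated enthesis was captured with a 3′ droplet kit in 6 libraries. The authors deposited, for each library, raw UMI counts per gene and barcode, not normalized. The submitters' processing notes name Cell Ranger 2.1.1 and mm10, whereas the file headers name Cell Ranger 4. A read near the 3′ end gives a level that does not scale with transcript length, so levels are compared within a gene only.

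Barcodes with at least 500 UMIs, 200 genes and at most 10% mitochondrial UMIs that differed from free RNA (barcodes with at most 100 UMIs, false discovery rate 0.01) were kept, and the cells with the highest Scrublet scores were removed at 0.8% per 1000 cells. Cells were clustered (scanpy 1.11.5, leidenalg 0.10.2, resolution 1) without the 10 members, Nlrp3 and sex-linked marker genes. Where more than 75% of a cluster came from 1 library and its cells were shallow, the cluster was set aside. The replicate was the library. The study gives n = 3 for each genotype, but no source used here ties animals to libraries and entheses were pooled, so p-values measure only the spread between these libraries.

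For every type that had 20 or more cells in all libraries, UMI counts were added up by library. Genotypes were compared by quasi-likelihood in edgeR 4.0.16 (R 4.3.3), with TMM scaling, the filterByExpr filter, Benjamini-Hochberg adjustment over all genes of a fit and a threshold of 0.05. Levels are CPM, counts scaled to 1000000 per sum. On simulated data of 14755 genes for the mesenchymal comparison, 96 of 100 genes changed 4-fold and 26 of 100 changed 2-fold were recovered, and 9 unchanged genes were called. The changed genes were drawn at random from those with a mean of at least 20 CPM. Mkx and Cilp2 had lower means in both groups, so these counts do not give the recovery for them. Intervals of shares cover counting error only.

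The named genes were all 10 members, companion genes past the threshold or, where fewer than 3 passed, the 3 with the largest change, and the 3 most similar genes per member, of which 1 is not reported here. Members and lists were chosen with earlier results of these data known. Alternatives were RLE scaling, no filter on low counts, DESeq2 1.42.0, a replicate block, other cell filters and clusterings, and each library left out. Positions come from the GENCODE annotation of GRCm38.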

Additional observations from a re-analysis of the deposited data

Results flagged for a closer look

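The difference of Tnmd between the genotype groups was not the same in matrix-building fibroblasts as in the other mesenchymal cells. In a test of this itself the interaction was -2.38 on the log2 scale (SE 0.27, adjusted p = 0.0322 by edgeR). Sex cannot be told apart from genotype here. Within each cluster of these fibroblasts the Tnmd values of the groups overlapped, and the part of cluster proportions was not tested. Mean Tnmd in the other mesenchymal cells was 112 CPM in wild type and 292 CPM in Nlrp3-/-. These pooled cells differed in their mix of subtypes between libraries, and its part was not tested. Mstn Chodl Kera cells made up 0.87%, 0.73% and 12.4% of mesenchymal cells in wild type and 2.01%, 29.9% and 18.2% in Nlrp3-/-. Tnmd had log2 fold changes of -0.21 in dividing cells and 0.11 in inflammatory fibroblasts. They were 0.65 in Pi16 progenitor fibroblasts and 0.82 in Ly6h Nrk Eln cells, and none was called by edgeR. The interaction was also called with RLE scaling (-2.40, adjusted p = 0.0359 by edgeR). It was not called without wild-type replicate 1 (-2.50, adjusted p = 0.294 by edgeR) or Nlrp3-/- replicate 1 (-2.27, adjusted p = 0.0987 by edgeR).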

How the results depend on the processing

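In subtypes 53 of 60 pairs passed the filter on low counts, the others were not tested at this depth, and each group had 3 libraries. In all mesenchymal cells 0 members were called with any scaling or filter, and 0 to 2 when a library was left out. In subtypes, where 3 pairs were called, the count was 17 without a filter on low counts and 1 at a clustering resolution of 2. It was 7 with DESeq2, which called 0.736% of all genes there. It was 1 to 8 when a library was left out (8 without wild-type replicate 3, 1 without Nlrp3-/- replicate 1 or 3). In the other cell types, with 0 called, the count was 15 without a filter and 1 with doublets kept. It was 5 with DESeq2, which called 2.48% of all genes there, and 0 to 6 when a library was left out (6 without wild-type replicate 3). For the settings other than DESeq2 the share of all genes called in subtypes and other types is not given here. Those counts are therefore not read as results about the members. The interaction gave 0 to 4 calls when a library was left out (4 without Nlrp3-/- replicate 2). The share of all genes called in those fits is likewise not given, and these counts are not read as results about the members. Without wild-type replicate 3, 712 genes were called in mesenchymal cells, against 16 with all libraries, and 252 with DESeq2.

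Whether the replicate numbers pair the samples was not settled. Deviations of log CPM from the group means, in mesenchymal cells, correlated at -0.138, -0.544 and -0.158 between same-numbered libraries. Between libraries with unlike numbers they correlated at -0.412 to 0.515. With 3 libraries per group such deviations sum to 0, so these values cannot show whether the samples were paired. The replicate block called 0 genes in mesenchymal cells, 4 pairs in subtypes and 1 in the other cell types. Its share of all genes called in subtypes and other types is not given here. These pairs are therefore not read as results about the members.

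The difference in the share of Mstn Chodl Kera cells was 13.1 percentage points over the cells that took the name tenocyte at a clustering resolution of 2, and -0.18 over the 98 cells that took it with the members kept in the clustering, which left out the unnamed cluster led by Mstn. Counted by the highest list it was 5.50 with the members kept, an alternative chosen after seeing the data, and 5.42 to 19.4 when a library was left out, and that of cells with Tppp3 and Pdgfra was -0.29 to 0.16 when a library was left out, reversed without wild-type replicate 2 or Nlrp3-/- replicate 1. In mesenchymal cells, equal weight for the subtypes, chosen after seeing the data, turned the direction of Scx (-0.22), Mkx (-0.19), Thbs4 (-0.21) and Tppp3 (0.044), and Thbs4 turned with doublets kept (-0.0023), with the clusters set aside included (-0.026) and with the clusters led by blood cell genes left out (-0.0038). Leaving out a library gave log2 fold changes of -0.19 to 0.93 for Scx, -0.029 to 0.43 for Mkx, -0.21 to 0.51 for Thbs4, -0.20 to 0.18 for Cilp, -0.034 to 0.091 for Pdgfa, 0.32 (without Nlrp3-/- replicate 2) to 2.70 (without wild-type replicate 3) for Cilp2 and, in inflammatory fibroblasts, -2.66 to 0.47 for Clec3b. The cause of these changes was not tested. Of the other single-gene results under an alternative, 201 kept their direction and their side of the threshold, 5 passed it and 10 no longer did.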
